A study of Mus musculus with 4 samples.

Results

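Laminins are large cross-shaped glycoproteins of the basement membrane, the sheet of matrix that underlies epithelia and wraps muscle, fat, nerve and vessels. Each laminin is a trimer of 1 alpha, 1 beta and 1 gamma chain, each from its own gene, and a trimer is named by the numbers of its chains, so that laminin-211 holds the alpha 2, beta 1 and gamma 1 chains. The trimer is joined inside the cell along a coiled coil, beta and gamma chains are held back until an alpha chain joins them, and the alpha chain carries most of the binding to integrins and dystroglycan. Fibroblasts make laminin chains without laying down a basement membrane of their own.

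The set described here is 9 laminin chain genes of the 18193 genes that the platform annotation names with 1 symbol: the alpha chain genes Lama1, Lama2, Lama3, Lama4 and Lama5, the beta chain genes Lamb1, Lamb2 and Lamb3, and the gamma chain gene Lamc1. All probe sets with one of these symbols were taken, 17 in all. The gamma 3 chain gene Lamc3 was read beside them. Lamb1 had stood among the genes with the largest rise in an earlier ranking of these arrays, and the family was chosen by its symbols with that value known. The knockout and wild-type values of the chains are therefore a description, without a test.

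The 4 Affymetrix arrays measured messenger RNA of immortalised mouse embryonic fibroblasts (MEFs) homozygous for a loxP-flanked PA1 allele. Cells infected with the empty retrovirus served as PA1 +/+ (2 arrays), and cells infected with a retrovirus expressing Cre recombinase, which cuts out DNA between loxP sites, as PA1 -/- (2 arrays). All cells grew in medium with 10% serum and were selected with puromycin at 2.0 µg/ml for 3 days, and the selection was then repeated. The controls thus carry the same conditional allele, virus backbone and drug selection but no Cre, so that loss of PA1 and presence of Cre cannot be told apart. PA1 was read as Pagr1a, a subunit gene of the histone H3 lysine methyltransferase complexes built on KMT2C or KMT2D. The labels number the arrays of each genotype 1 and 2 without naming separate cultures, so the spread between them may be technical.

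Pagr1a read 1340.3 and 1389 on the wild-type arrays and 108 and 113 on the knockout arrays by its brightest probe set, which sets the 2 genotypes apart as labelled. All 10 fibroblast markers checked were bright enough to be tested. Their summed signal was 89042 and 109442 in wild-type and 79345 and 89099 in knockout cells, most of it from a few bright genes. Of the dimmer markers, named here after their values were seen, Pdgfra and Dcn were lower in both knockout arrays. Pdgfra read 1515 and 357 in wild-type against 134 and 210.3 in knockout cells, and Dcn 138 and 103 against 41.4 and 37.9. Thy1, also dim, overlapped between genotypes at 189 and 255 against 94.6 and 280, higher in the knockout at number 2. Pdgfrb, at 3694 and 3482 against 1571 and 2807, and Col1a2, at 18183 and 20947 against 16542 and 16831, were lower in both knockout arrays. Col3a1 and Fn1 were higher in the knockout at number 1 and lower at number 2. Markers of other cell types were low in sum: 137 to 175 for 6 endothelial genes, 288 to 439 for 5 macrophage genes, 338 to 740.3 for 7 epithelial genes, 240.3 to 868 for 4 muscle genes, 90.2 to 481 for 2 adipocyte genes and 101 to 152 for 2 Schwann cell genes. The defining genes Pecam1 (3.36 to 10.2), Ptprc (3.83 to 16.8), Myod1 (4.09 to 25.9) and Adipoq (17.8 to 21.7) stayed near the floor. Other members of these lists passed the filter: Epcam read 112 to 190.4, Krt18 11.4 to 298, Kdr 48.2 to 82.5, Sox10 68.5 to 107, Cd68 133 to 224, Des 47.0 to 88.5, Acta1 138 to 768 and Fabp4 70.2 to 462. The macrophage gene Csf1r read 94.9 and 91.3 in wild-type and 175 and 147 in knockout cells, without overlap. The endoderm list summed to 1504 and 1695 on the arrays numbered 1 and to 281 and 269 on those numbered 2, with Gata6 at 1470.2 and 1625 on the former and 181 on each of the latter. The part of these markers in the results below was not tested. Log2 signals of tested probe sets correlated at 0.971 and 0.977 between genotypes within a number, and at 0.918 and 0.920 within a genotype across numbers. For 67.5% of the 10714 tested genes the 2 numbers lay further apart than the 2 genotypes, so each chain is given on every array and as a difference within each number.

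Upstream sequence is shown for Lamb1 and Lama2, the tested chains whose genotype groups did not overlap and whose differences ran opposite ways. Promoter windows were read for 5 of the 9 chain genes from the RefSeq promoter table (assembly GRCm38.p6). A chromosome was left out of that reading, so the table may hold more of them. The 250 bases before the listed start lie at chr12:31265043-31265292 on the plus strand for Lamb1 and at chr10:27616943-27617192 on the minus strand for Lama2. In both genes the RefSeq gene span begins inside this window, upstream of the listed start, so part of each window is transcribed in another model. Capitals mark the GC box GGGCGG, read on either strand.
Lamb1: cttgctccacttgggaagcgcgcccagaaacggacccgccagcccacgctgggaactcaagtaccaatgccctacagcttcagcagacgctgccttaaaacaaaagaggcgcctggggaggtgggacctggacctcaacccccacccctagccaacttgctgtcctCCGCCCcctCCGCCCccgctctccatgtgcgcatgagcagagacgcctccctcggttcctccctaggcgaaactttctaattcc
Lama2: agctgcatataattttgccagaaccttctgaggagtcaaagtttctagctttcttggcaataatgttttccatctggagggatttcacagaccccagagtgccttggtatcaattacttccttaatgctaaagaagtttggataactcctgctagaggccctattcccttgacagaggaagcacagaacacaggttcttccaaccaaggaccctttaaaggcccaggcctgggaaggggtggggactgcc
The Lamb1 window holds 2 GC boxes, 84 to 79 and 75 to 70 bases before the start, both as the reverse letters CCGCCC, and 1 CCAAT. The Lama2 window holds neither motif, and neither window holds TATAAA or TGANTCA on either strand. Over 32851 promoter windows of this length, 32.7% hold GGGCGG, 33.8% CCAAT, 12.4% TATAAA and 6.75% TGANTCA. The short E-box letters CANNTG, which 66.2% hold, occur at 2 places in the Lamb1 window and at 1 in that of Lama2. No matches overlap each other in either window. The G and C content is 62% for Lamb1 and 47.2% for Lama2, against a median of 52.4%. These matches describe letters and were not tied to any signal.

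Of the 9 genes, 5 were bright enough to be tested, by 8 of the 17 probe sets: Lama2, Lama5, Lamb1, Lamb2 and Lamc1. In the knockout arrays Lamb1 was higher and Lama2 lower at both replicate numbers, Lamc1 and Lamb2 differed little, and Lama5 was higher at number 1 alone. A probe set counted as tested when its mean log2 signal lay in the upper 50% of all probe sets, a boundary near a signal of 62.8. All differences below are of log2(signal + 9.96), knockout minus wild type, where 9.96 keeps dim values from dominating and makes the difference of dim genes too small. In bulk RNA, fewer cells making a transcript and less transcript per cell cannot be told apart.

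**Figure D1:**
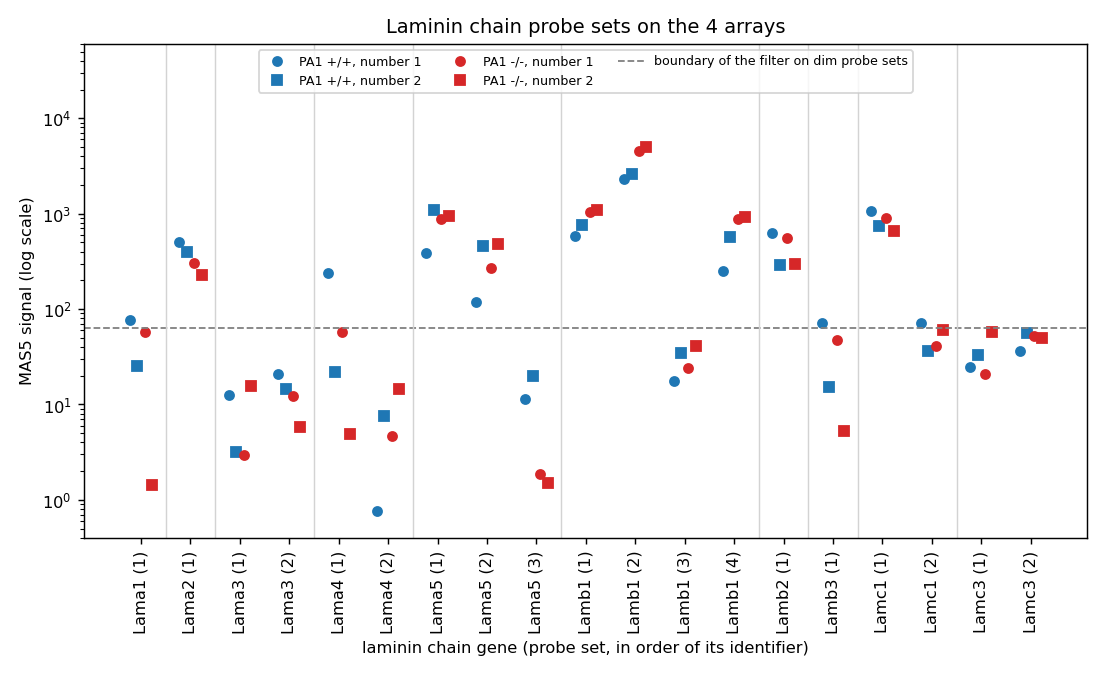
MAS5 signal (log scale) of every laminin chain probe set and of the 2 Lamc3 probe sets on the 4 arrays, with colour for genotype and shape for replicate number; the dashed line is the boundary of the filter near 62.8. Signals of different probe sets are not comparable with each other. Among tested probe sets, the knockout arrays stand above the wild-type arrays in 3 of Lamb1 and below them for Lama2. A dim Lama5 and a dim Lama3 probe set also stand below them. Others separate by number, among them Lamb2, the bright Lamc1 probe set, Lama1, Lamb3 and the first Lama4 probe set.

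Among the beta chains, Lamb1 encodes the beta 1 chain, which most fibroblast and muscle laminins share. Its brightest probe set read 2299 and 2600.1 on the wild-type arrays numbered 1 and 2, and 4546 and 4938 on the knockout arrays. Both knockout values thus lay above both wild-type values, and the numbers differed far less than the genotypes. The means were 2449.8 ± 213 and 4742 ± 277 (SD, n = 2 each), and the log2 signals differed by 0.95 (SE 0.193). Within numbers 1 and 2 it was 0.98 and 0.92.

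The other Lamb1 probe sets gave the same direction. One read 579 and 765 in wild-type and 1039 and 1101 in knockout cells, with differences of 0.83 and 0.52 at numbers 1 and 2. Another read 252 and 569.6 against 883 and 921, with differences of 1.77 and 0.68. The knockout values of this probe set were close together, and the spread came from the wild-type arrays. The last, below the filter, read 17.5 and 34.6 against 24.3 and 40.6 and overlapped between genotypes. All 4 Lamb1 probe sets were higher in the knockout at both numbers.

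Lamb2 encodes the beta 2 chain, known from the neuromuscular junction and the kidney filter. Its 1 probe set read 624 and 292 in wild-type and 551 and 296 in knockout cells. It differed by -0.18 at number 1 and 0.02 at number 2, and by -1.07 and -0.87 between number 2 and number 1 of the wild-type and knockout arrays. Lamb2 was thus set apart by number and not by genotype. Lamb3 encodes the beta 3 chain, known from the anchorage of the skin's epithelium. It was below the filter, at 70.8 and 15.1 in wild-type and 47.4 and 5.24 in knockout cells.

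Among the alpha chains, Lama2 encodes the alpha 2 chain of muscle and nerve, whose loss causes a congenital muscular dystrophy. Its 1 probe set read 507 and 396 in wild-type and 302 and 225 in knockout cells. Every knockout value lay below every wild-type value. The means were 451 ± 78.4 and 264 ± 54.5 (SD, n = 2 each), and the log2 signals differed by -0.76 (SE 0.305). Within numbers 1 and 2 it was -0.73 and -0.79, so that wild-type cells read 1.65-fold and 1.72-fold higher on this scale.

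Lama5 encodes the alpha 5 chain, found in most epithelial and vessel basement membranes. Its brightest probe set read 385 and 1101 in wild-type and 880.3 and 948 in knockout cells. The wild-type array numbered 1 was low and the other 3 arrays were alike. The difference was 1.17 at number 1 and -0.21 at number 2, with a mean of 0.48 and a standard error of 0.538. A second tested probe set read 118 and 456 against 269.9 and 475, with differences of 1.13 and 0.06. With wild-type array 1 left out, the brightest probe set differed by -0.27, so the direction rests on that array. A dim one read 11.3 and 19.9 against 1.89 and 1.504 and went the other way at both numbers.

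Lama4 encodes the alpha 4 chain of mesenchymal, fat and vessel laminins. The brighter of its 2 probe sets read 240.4 and 22.1 in wild-type and 58.0 and 4.90 in knockout cells, below the filter on average. It was lower in the knockout at both numbers, by 1.88 and 1.11 on the log2 scale, but the genotypes overlapped. The numbers differed more, by -2.97 in wild-type and -2.19 in knockout cells. The second Lama4 probe set stayed between 0.759 and 14.4 and was higher in the knockout at both numbers, by 0.45 and 0.47.

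Lama1 encodes the alpha 1 chain of the early embryo. It read 77.0 and 25.5 in wild-type and 58.0 and 1.43 in knockout cells, below the filter. Lama3 encodes the alpha 3 chain, found in skin and other epithelia, and its 2 probe sets stayed between 2.97 and 21.1 on all 4 arrays. Neither gene was measured well enough to give a difference.

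The gamma 1 chain gene Lamc1 is the common partner in most laminins. It read 1057 and 745 in wild-type and 902 and 661 in knockout cells by its bright probe set. The genotypes overlapped, and the array numbered 2 was the lower one of each. The differences were -0.23 and -0.17 within numbers 1 and 2, with a mean of -0.20 and a standard error of 0.317. Its second probe set, below the filter, read 71.8 and 36.0 against 41.0 and 61.0. The 2 probe sets of Lamc3, the gamma 3 chain gene, stayed between 20.6 and 57.9 and went opposite ways at numbers 1 and 2.

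**Figure D2:**
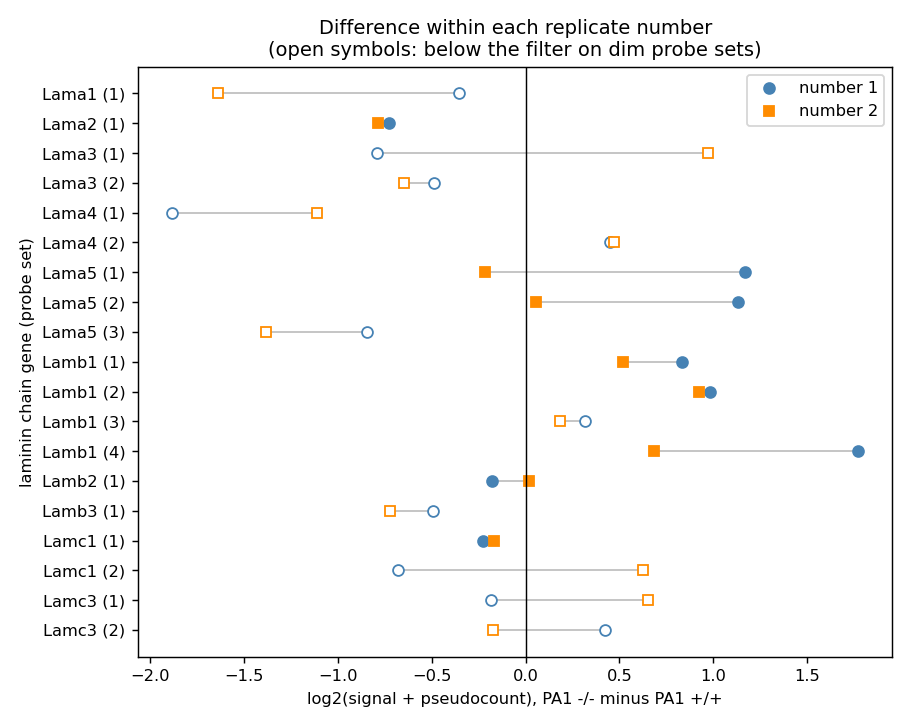
Difference of log2(signal + 9.96), knockout minus wild type, within replicate number 1 (circles) and number 2 (squares) for each laminin chain and Lamc3 probe set; open symbols are below the filter on dim probe sets. The 4 Lamb1 probe sets lie to the right of 0 at both numbers, Lama2 lies at -0.73 and -0.79, and the Lama5 probe sets run both ways: the 2 tested ones lie at 1.17 and 1.13 at number 1 and at -0.21 and 0.06 at number 2, and the dim one at -0.84 and -1.38.

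Read as a family, 2 of the 5 tested chains were higher and 3 lower in the knockout, with a median log2 difference of -0.08 against 0.02 over all 10714 tested genes. At both numbers 1 chain was higher (Lamb1) and 2 were lower (Lama2 and Lamc1), where 33.9% of tested genes were higher and 29.3% lower at both. Genotype groups did not overlap for 1 chain on the higher side and 1 on the lower side, against 15.0% and 11.3% of tested genes. The family did not move as a block. Leaving out array 1 or 2 of the wild type gave medians of 0.05 and -0.45, and leaving out array 1 or 2 of the knockout gave -0.42 and 0.36. Fits that leave out 1 array hold unequal replicate numbers, so these medians also carry the difference between numbers. After quantile, median and cyclic loess scaling Lamb1 differed by 0.97, 1.001 and 0.95 and Lama2 by -0.79, -0.71 and -0.81.

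With genotype as the only term, limma called 0 of 22519 probe sets at an adjusted p under 0.05 (0% of them), and 440 had an unadjusted p under 0.05. No chain passed, as no gene did, nor did Pagr1a, the targeted gene (adjusted p = 0.876 by its brightest probe set). The 0 calls of this fit, here and for the lists below, therefore say nothing about those genes. With the replicate number added as a block, limma called 0.524% of probe sets as higher and 1.46% as lower, and 2.48% of genes in either direction, with 1 of the 5 tested chains among them (Lamb1). The rule had used this contrast, so nothing is read from that count either.

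Of 13 laminin trimers known from tissues whose chain genes all had a probe set, 4 had all 3 chains among the tested genes: laminin-211, laminin-221, laminin-511 and laminin-521. These join the alpha 2 or alpha 5 chain to the beta 1 or beta 2 chain with gamma 1. Laminin-411 and laminin-421 lacked only Lama4, laminin-111 and laminin-121 only Lama1, laminin-311 and laminin-321 only Lama3, and laminin-213 and laminin-523 only Lamc3. Lama4 and Lama1 read above the boundary near 62.8 on the wild-type array numbered 1 alone, and Lama3 and Lamc3 on no array. In the knockout arrays the transcript of the shared beta 1 chain was higher, that of alpha 2 lower and that of gamma 1 nearly the same. Detection calls were not used here and protein was not measured, so the list gives trimers whose transcripts were measured, not trimers that the cells made.

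The 5 tested genes whose log2 signals over the 4 arrays, each centred on its mean, lay nearest to Lamb1 were Il34, Cttnbp2nl, Ddhd1, Tspan2 and Cep72. Il34, a ligand of the colony stimulating factor 1 receptor, read 78.4 and 88.3 in wild-type and 149 and 182 in knockout cells. Tspan2, a tetraspanin gene, read 318 and 397 against 602 and 725. All were picked for this likeness over 4 arrays, by Euclidean distances from 0.115 to 0.183 (log2 units), so their differences are no further evidence.

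Laminin is tied into the basement membrane by nidogens, perlecan and agrin beside the type IV collagen net. Of 24 genes of such partners, 17 were tested and limma called 0 in either direction, as over all genes; 4 had an unadjusted p under 0.05, as did 231 of the 10714 tested genes. The median difference was -0.11, with 7 genes higher and 10 lower, and 3 were higher and 8 lower at both numbers (33.9% and 29.3% over all tested genes). Groups did not overlap for 1 gene on the higher and 4 on the lower side, against 15.0% and 11.3% of all tested genes. Within numbers 1 and 2 the median was -0.15 and -0.20. When wild-type array 1 was left out it was 0.25, and when knockout array 2 was left out it was 0.11. Such fits also carry the difference between numbers, so they cannot settle its direction.

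The largest differences among partners that ran the same way at both numbers were those of Smoc2, Ntn4, Col18a1 and Fbln2. Smoc2, a calcium-binding matrix protein gene, read 224 and 148 in wild-type and 107 and 54.3 in knockout cells (log2 difference -1.15, SE 0.438). Ntn4 encodes netrin-4, which binds the gamma 1 chain and hinders laminin network assembly, and it read 139 and 129 against 80.7 and 46.2 (-1.01, SE 0.371). Col18a1, the type XVIII collagen gene, read 247 and 244 against 137 and 116 (-0.91, SE 0.277), and its second probe set differed by -1.01. In these 3 genes both knockout arrays lay below both wild-type arrays, and their dim or second probe sets pointed the same way.

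Fbln2 encodes fibulin-2, which binds laminin and nidogen. It read 6007 and 9671 in wild-type and 11966 and 13960.4 in knockout cells (0.76, SE 0.270), while a second probe set, at 276 and 382 against 294 and 585, overlapped between genotypes. None of these 4 genes passed limma with genotype as the only term (adjusted p = 0.9998 for each). With the replicate number as a block, Fbln2 (adjusted p = 0.0110) and Smoc2 (0.0380) passed limma, while Col18a1 (0.0657) and Ntn4 (0.0911) did not.

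The central linkers, named here after their values were seen, gave no common direction. The nidogen gene Nid1 read 2848 and 1934 against 2503 and 3027, with differences of -0.19 and 0.64 at the 2 numbers. Nid2 read 1132 and 171 against 820.5 and 148, a difference of -2.65 between numbers in wild-type and -2.39 in knockout cells. Perlecan (Hspg2) differed by 0.48 at number 1 and -0.06 at number 2, and Col4a1 by -0.04 and -0.20. The agrin gene Agrn read 533 and 617 against 475 and 249.8, with most of the difference at number 2.

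**Figure D3:**
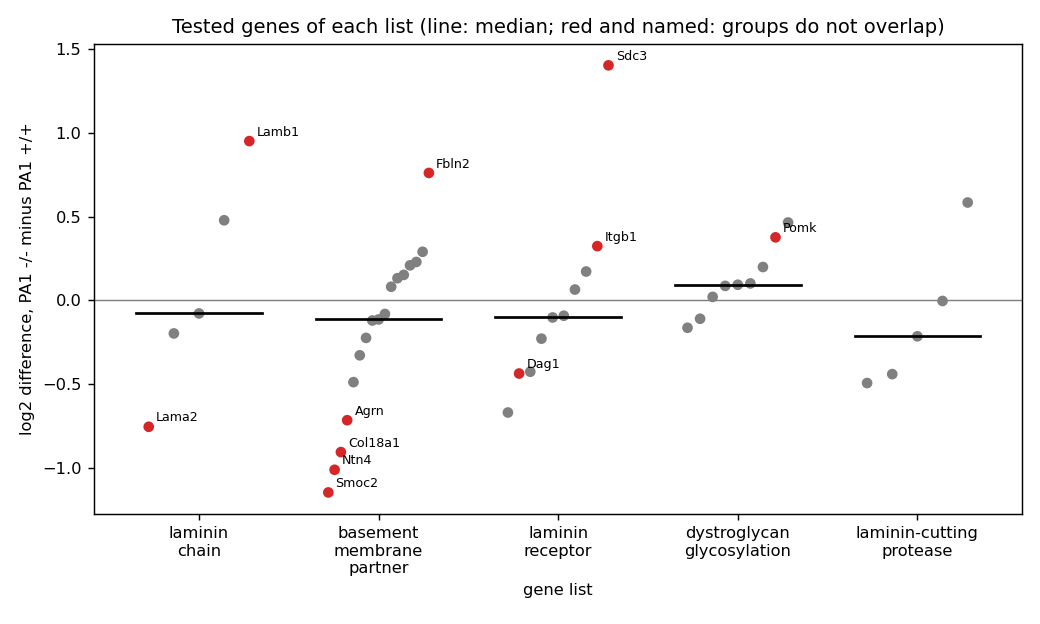
Difference of log2(signal + 9.96), knockout minus wild type (mean of both numbers), for the tested genes of each list, with a line at the list median; genes in red, which are named, have genotype groups that do not overlap. The medians run from -0.21 for the proteases to 0.09 for the glycosylation genes, and Sdc3 (1.40) and Lamb1 (0.95) lie highest.

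Cells bind laminin through integrins, dystroglycan, the blood group protein Bcam and syndecans. Of 14 such genes 10 were tested and limma called 0 in either direction, as over all genes. At an unadjusted p under 0.05 the count was also 0, against 231 of the 10714 tested genes, a share too low to be read from 10 genes. The median difference was -0.10, with 4 higher and 6 lower, where 5710 and 5004 of all tested genes were. Within numbers 1 and 2 the median was 0.088 and -0.13. Leaving out knockout array 1 gave a median of 0.22, and leaving out wild-type array 2 gave 0.19, values that also carry the difference between numbers. Sdc3, the syndecan-3 gene, read 368 and 1117 in wild-type and 1493 and 1975 in knockout cells, with differences of 1.99 and 0.82 at numbers 1 and 2 and a mean of 1.40 (SE 0.573). Limma called it with the replicate number as a block (adjusted p = 0.0146), though not without (0.9998). Its knockout values lay above its wild-type values, and its 2 other tested probe sets were also higher at both numbers, by 0.67 and 0.78 on average.

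Itgb1 encodes integrin beta 1, the common beta chain of most laminin-binding integrins. It read 4526 and 5387 in wild-type and 5698 and 6708 in knockout cells (0.32, SE 0.195). Dag1, the dystroglycan gene, read 4005 and 4051 against 3240.1 and 2725 (-0.44, SE 0.197) by its brightest probe set. Its 3 other tested probe sets were higher in the knockout at number 1 and lower at number 2. Their mean differences were -0.25, -0.16 and -0.015. Itga6, the integrin alpha 6 gene and named here after its values were seen, was set apart by number: it read 545 and 2659.6 in wild-type and 276 and 2034 in knockout cells. The integrin beta 4 gene Itgb4, partner of alpha 6 in epithelia, was below the filter.

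Dystroglycan binds the alpha 2 chain only after its sugar chain has been built. Of 13 genes of that pathway 9 had a probe set with 1 symbol and the other 4 were not analysed here. All 9 were tested and limma called 0 in either direction, as over all genes. At an unadjusted p under 0.05 the count was 0, against 231 of the 10714 tested genes, a share too low to be read from 9 genes. Their median was 0.09, with 7 higher and 2 lower. Over all tested genes it was 0.02, with 5710 higher and 5004 lower. The median was 0.088 and 0.099 within numbers 1 and 2. It was -0.07 without the knockout array numbered 2, a value that also carries the difference between numbers. Pomk, the kinase gene of the pathway, read 549 and 563 against 772 and 680.2 (0.38, SE 0.245) by its brightest probe set. A second tested probe set overlapped between genotypes, at 515 and 605 against 542 and 587.

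Of 7 genes of proteases that act on laminins 5 were tested and limma called 0 in either direction, as over all genes. At an unadjusted p under 0.05 the count was 0, against 231 of the 10714 tested genes, a share too low to be read from 5 genes. The median was -0.21, with 1 higher and 4 lower, where 5710 and 5004 of all tested genes were. None had groups without overlap, where 15.0% of all tested genes did on the higher and 11.3% on the lower side. Bmp1, named here after its values were seen, encodes the tolloid protease that trims laminin and collagen chains. It read 1309.5 and 2493 in wild-type and 2094 and 3519.6 in knockout cells, and it was higher by 0.67 and 0.50 within numbers 1 and 2.

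**Figure D4:**
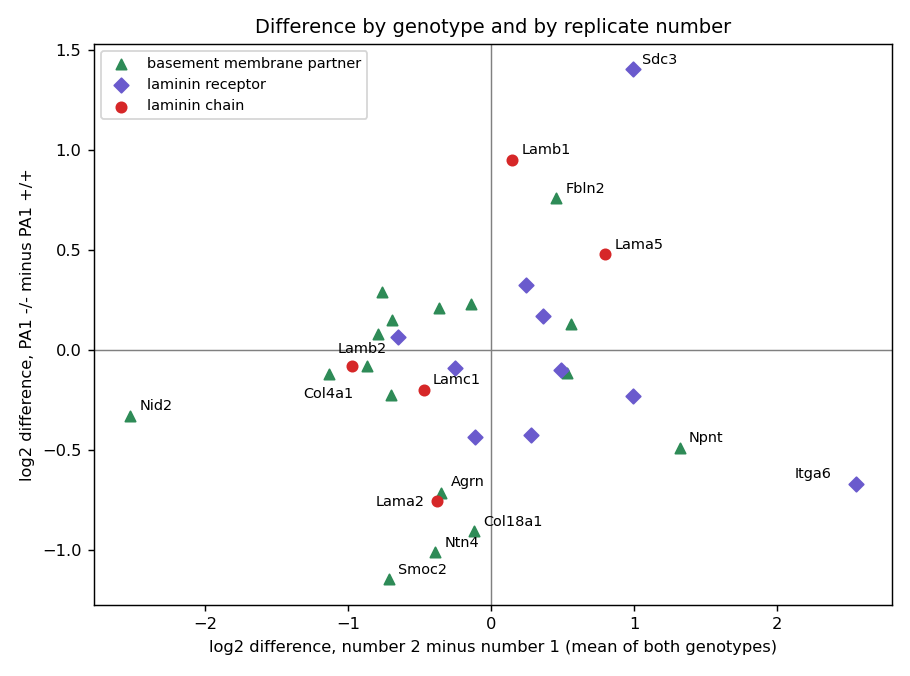
Log2 difference by genotype (vertical, knockout minus wild type) against the difference by replicate number (horizontal, number 2 minus number 1, mean of both genotypes) for tested laminin chains (circles), basement membrane partners (triangles) and laminin receptors (diamonds). Lamb1 and Lama2 lie further from 0 by genotype, whereas Lamb2, Nid2 (-2.52) and Itga6 (2.55) lie further by number.

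By number, Lamb2, Lamc1 and Lama5 lay further apart than by genotype, 3 of the 5 tested chains. So did 11 of 17 partners, 6 of 10 receptors, 8 of 9 glycosylation genes and 5 of 5 proteases. Over all tested genes the share was 67.5%. Averaged over genotypes, number 2 minus number 1 was -0.97 for Lamb2, -0.47 for Lamc1, -0.38 for Lama2, 0.80 for Lama5 and 0.15 for Lamb1. The labels give the numbers as replicates and nothing more.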

How the data were processed

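Biotin-labelled total RNA was read on 4 Affymetrix arrays. The deposited intensity values are linear signals per probe set, for which the submitters' processing notes name MAS5, with version and settings not given in the sources used here. Arrays appear scaled to 1 common mean, so each difference is relative to the array's average. After removal of 64 controls, 45037 probe sets remained; 34945 had 1 symbol, 932 several and 9160 none. Gene identifiers of 34741 were found in RefSeq GRCm38.p6, with 0 symbols changed.

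Signals were taken as log2(signal + 9.96), 9.96 being the 20th percentile. The upper 50% (22519 probe sets, 10714 genes read through their brightest) were fitted with limma 3.58.1 in R 4.3.3. The fit used eBayes with trend, genotype as the only term and Benjamini-Hochberg over all, with a 2-sided threshold of 0.05. Standard errors are limma's from the fit with genotype alone, so they and the standard deviations include the difference between replicate numbers. On simulated data the median estimate had to lie near the planted difference. Recovery of planted changes was required only of the fit with the replicate block, not of the fit with genotype alone. The number of arrays limits the precision. Members and lists were chosen with earlier results of these data known. The text names every chain, Pagr1a, from each list the genes that passed or else up to 4 with the largest same-way difference without overlap, and the 5 genes nearest to Lamb1. Alternatives were quantile, median and cyclic loess scaling, pseudocounts of 1 and 64.9, no filter and the upper 30%, averaging the probe sets of a gene, other variance models, a replicate block and each array left out. Plots used Python 3.11.15 and matplotlib 3.10.9.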

Additional observations from a re-analysis of the deposited data

How the results depend on the processing

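Over the alternatives Lamb1 ran from 0.86 to 1.04 and Lama2 from -0.96 to -0.55; since their genotype groups do not overlap, leaving out an array could not turn their direction, and the filters and the replicate block leave the difference as it is. With the replicate block, the number as a term of the fit, limma called 447 of 22519 probe sets, 118 higher (0.524%) and 329 lower (1.46%). By gene it called 2.48% of the 10714 tested genes in either direction. Among them were 1 of 5 chains (Lamb1), 2 of 17 partners (Fbln2 and Smoc2) and 1 of 10 receptors (Sdc3). The limma adjusted p was 0.00615 for Lamb1 and 0.0803 for Lama2. Of 9 glycosylation genes and 5 proteases 0 were called, and at that share these lists are too small to be told apart by such counts. Number 2 minus number 1 correlated at 0.805 between genotypes across probe sets, which are not independent replicates. The labels do not say that the numbers pair the arrays, so this fit is a second view of the same values, and for the chains it is no independent support. With each array left out in turn, probe sets and list genes called were 0 to 0.

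Medians moved by more than the spread between numbers as follows. The chain median was -0.12 after quantile, -0.029 after median and -0.14 after cyclic loess scaling, -0.073 with the pseudocount at 64.9 and -0.57 without the filter, which adds the 4 dim chain genes. The glycosylation median was 0.058, 0.14, 0.040 and 0.081 under the first 4 of these, and 0.17 when a gene's probe sets were averaged. Partners gave -0.065 after median scaling and 0.015 with mean probe sets; proteases gave -0.33 with the upper 30% and -0.11 with mean probe sets. With each array left out, medians ran from -0.45 to 0.36 for chains, -0.45 to 0.25 for partners, -0.30 to 0.22 for receptors, -0.074 to 0.26 for glycosylation genes and -0.40 to -0.028 for proteases. Signals near the floor limit Lama1, Lama3, Lama4 and Lamb3.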
